A study of Mus musculus with 9 samples.

Results

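The miRNAs described here are 10 mature arms that map to the Rtl1 gene of the imprinted Dlk1-Dio3 region on mouse chromosome 12. They were chosen by name: the arms of miR-127, miR-136, miR-431, miR-433 and miR-434, which lie on the strand antisense to Rtl1, and both arms of miR-3071, which lies on the opposite strand at miR-136. They make 10 of the 1915 mature miRNAs in the tables, and all 10 were among the 304 that exceeded 32 counts in some library and were tested. Small RNA was sequenced from the tibialis anterior (TA) muscle, with 4 mice in the control group and 5 tumor-bearing mice in the LLC group. LLC mice had received 750000 cells of Lewis lung carcinoma, a mouse lung tumor line, in each flank, control mice had received PBS in each flank, and both were examined after 22 days. The labels describe C57BL/6J mice aged 10 weeks, whereas the series text names male C57BL/10 mice aged 8 weeks. The control mice are numbered 1 to 4, and the LLC mice 1, 2, 3, 5 and 6. Implanted flank tumors of 1 cell line limit the group as a model, and whole muscle holds blood, vessel and connective tissue beside the fibers.

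Rtl1 is a gene derived from a retrotransposon and is expressed from the paternal chromosome. The maternal chromosome instead gives a long antisense transcript, from whose hairpins these miRNAs are cut, and because they lie antisense to the Rtl1 coding sequence they pair with the Rtl1 mRNA along their whole length. A hairpin gives a 5p and a 3p arm, of which 1 usually is the guide that is loaded into Argonaute, and the seed near the 5′ end of an arm decides most of its other targets. The miRNAs of Dlk1-Dio3 are abundant in fetal tissues and in muscle progenitors.

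The mature sequences are shown because the arms of 1 hairpin, and the hairpins among each other, carry different seeds. They are from RefSeq (GRCm38.p6), are written 5′ to 3′, and have the seed, bases 2 to 8, in capitals.
mmu-miR-127-3p: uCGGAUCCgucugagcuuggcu
mmu-miR-127-5p: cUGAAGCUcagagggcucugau
mmu-miR-136-5p: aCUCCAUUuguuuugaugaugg
mmu-miR-136-3p: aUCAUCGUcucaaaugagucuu
mmu-miR-3071-3p: aUCAUCAAaacaaauggagucc
mmu-miR-3071-5p: aCUCAUUUgagacgaugaugga
mmu-miR-434-3p: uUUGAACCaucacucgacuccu
mmu-miR-434-5p: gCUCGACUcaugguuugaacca
mmu-miR-433-3p: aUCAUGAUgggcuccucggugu
mmu-miR-431-5p: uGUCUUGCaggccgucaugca
All 10 names were matched in RefSeq, and none of the 10 seeds occurred in another member or in any other mature miRNA of that table.

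The 6 hairpins lie within the coding exon of Rtl1, whose gene spans chr12:109589193-109600330 on the minus strand. In the order of the chromosome they are Mir431 (chr12:109590447-109590537), Mir433 (chr12:109591715-109591838), Mir127 (chr12:109592846-109592915), Mir434 (chr12:109594506-109594599) and Mir136 (chr12:109595327-109595388), all on the plus strand. Mir3071 (chr12:109595318-109595397) encloses Mir136 on the minus strand. Each of the 8 antisense arms had 1 perfect complement in the Rtl1 transcript of 6358 bases. For miR-127-3p it was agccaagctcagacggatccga, at transcript positions 2642 to 2663. The miR-3071 arms are on the same strand as Rtl1 and had no complement there.

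The arms of miR-136 and miR-3071 are shown next because they are complementary to each other. The complementary bases are in capitals: 20 bases between miR-136-5p and miR-3071-3p, and 19 bases between miR-136-3p and miR-3071-5p.
miR-136-5p: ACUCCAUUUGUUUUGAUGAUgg
miR-3071-3p: AUCAUCAAAACAAAUGGAGUcc
miR-136-3p: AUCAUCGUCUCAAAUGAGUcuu
miR-3071-5p: ACUCAUUUGAGACGAUGAUgga
The mapping options listed by the authors include none that keeps to 1 strand, so such a limit cannot be assumed. Without strand, reads that lie within the complementary bases cannot be told apart, whereas full-length reads extend past them. The values of miR-3071, and their agreement with miR-136, are uncertain to that extent.

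The arms differed widely in level. In control mice, miR-127-3p was highest at 4443.9 ± 134.1 CPM (reads of the arm scaled to library size with TMM factors, mean ± SD, n = 4), followed by miR-434-3p, miR-136-5p, miR-434-5p, miR-136-3p, miR-3071-5p, miR-3071-3p, miR-431-5p, miR-127-5p and miR-433-3p. Of the 9 neighbors in this order, 6 did not overlap between control mice, and 3 did: miR-3071-5p with miR-3071-3p, miR-3071-3p with miR-431-5p, and miR-127-5p with miR-433-3p. Among the 304 tested miRNAs, miR-127-3p ranked 21 and miR-434-3p ranked 31 by mean CPM. Together these arms held 85.9 to 89.7% of the members' counts in each library, so the summed level follows them. All libraries held 4992339 to 7833161 counts, and 3 counts, the upper limit that a count of 0 allows, equal 0.344 to 0.593 CPM.

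Comparing LLC with control mice asked whether the Rtl1-antisense miRNAs differ in the muscle of tumor-bearing mice. Fitted log2-fold changes were below 0 for 8 of the 10 arms and above 0 for miR-434-3p and miR-3071-5p, where 53.6% of all tested miRNAs were below 0. Their median was -0.36, against -0.02 over all tested miRNAs. None of the 10 was called at an adjusted p of at most 0.05 with a fold change of at least 1.5 (edgeR quasi-likelihood test, Benjamini-Hochberg), and neither was any of the 304 (background 0%). At an unadjusted p of at most 0.05 there were 5 of the 10, all lower in LLC mice: miR-127-3p, miR-127-5p, miR-136-5p, miR-3071-3p and miR-434-5p. The background was 16.4% of the tested miRNAs in either direction with 11.2% lower and 5.26% higher.

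**Figure D1:**
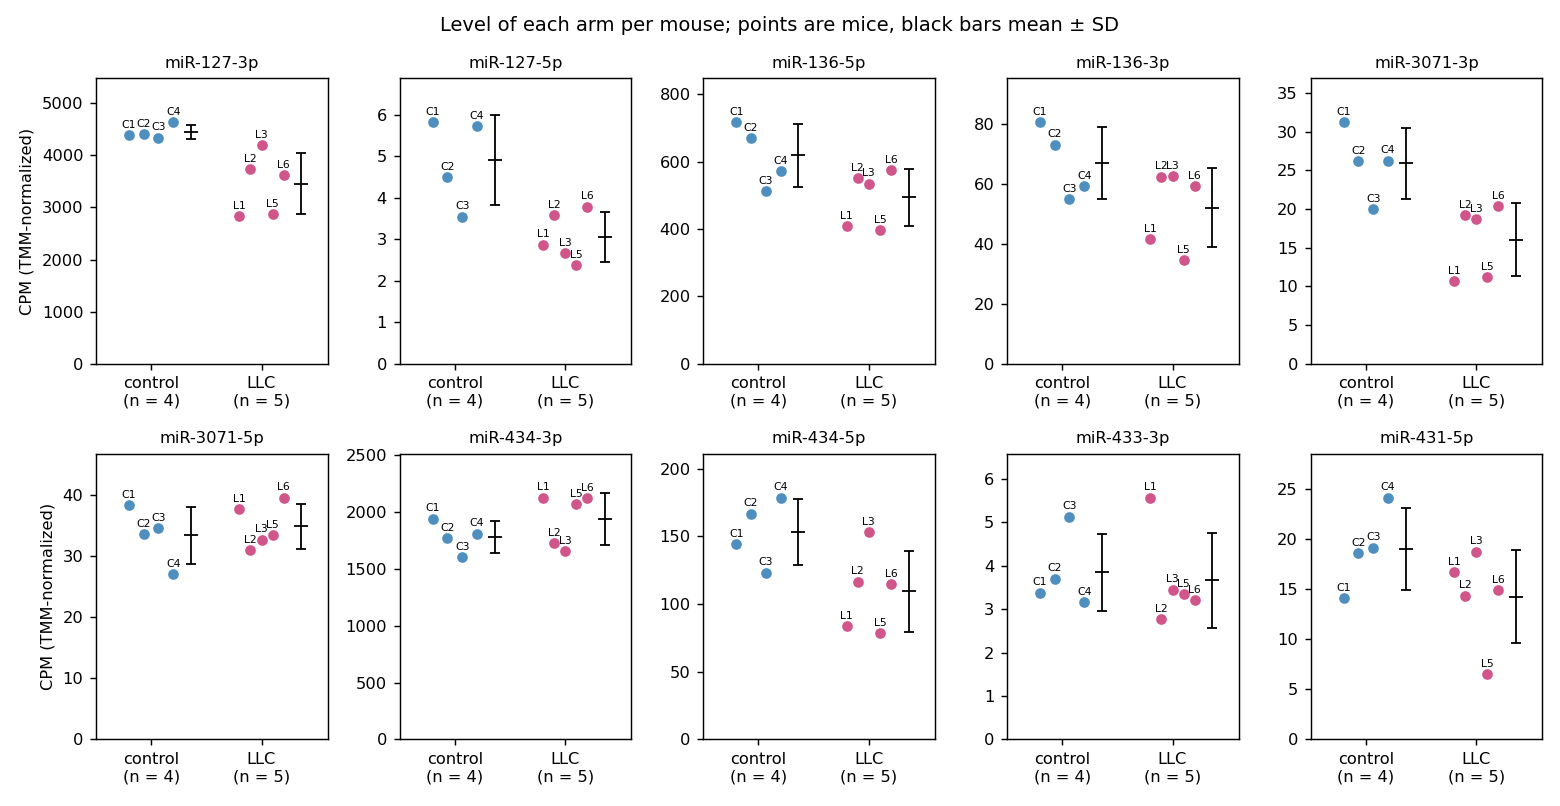
Level of each of the 10 arms in TMM-normalized CPM (vertical axes, linear from 0) for control (C) and LLC (L) mice, with 1 point per mouse and black bars for the mean ± SD. For miR-127-3p the 5 LLC mice lie below all 4 control mice, and L1 and L5 are the lowest of the 9 mice for miR-127-3p, both miR-136 arms, miR-3071-3p and miR-434-5p.

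miR-127-3p, whose site in Rtl1 is printed above, was the most abundant of the group. Its level was 4389, 4405, 4341 and 4641 CPM in control mice 1 to 4, and 2838, 3735, 4196, 2878 and 3624 CPM in LLC mice 1, 2, 3, 5 and 6. The groups did not overlap, as in 5.92% of the tested miRNAs, or 4.28% for lower ones, and LLC 3 came close to the lowest control. Control mice varied little (coefficient of variation 3.02%), and LLC mice more (16.9%). The log2-fold change was -0.36 (SE 0.129), with an unadjusted p of 0.0126 and an adjusted p of 0.214 by edgeR, and a two-sided exact permutation p of 0.0159. Without LLC 1 and LLC 5, the lowest mice, it was -0.17. The other arm of the hairpin, miR-127-5p, was counted only 12 to 43 times per library. It had 5.82, 4.50, 3.54 and 5.73 CPM in control mice and 2.87, 3.58, 2.66, 2.37 and 3.78 CPM in LLC mice, with 3 of 5 LLC mice below all control mice. Its log2-fold change was -0.66 (SE 0.247, adjusted p = 0.217 by edgeR), with an exact permutation p of 0.0397.

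miR-136 was counted mainly as its 5p arm. miR-136-5p was at 718, 671, 512 and 572 CPM in control mice and 408.8, 552, 534, 398 and 575 CPM in LLC mice. The groups overlapped, with LLC 1 and LLC 5 below every other mouse. The log2-fold change was -0.32 (SE 0.141), with an unadjusted p of 0.0360 and an adjusted p of 0.284 by edgeR, but an exact permutation p of 0.119. It was -0.13 without LLC 1 and LLC 5. For the 3p arm the levels were 80.8, 73.2, 55.1 and 59.5 CPM against 41.5, 62.6, 62.8, 34.5 and 59.5 CPM. Its log2-fold change was -0.36 (SE 0.187, adjusted p = 0.297 by edgeR), and again LLC 1 and LLC 5 were the lowest.

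The miR-3071 arms, from the opposite strand, differed in their fold changes. miR-3071-3p was at 31.3, 26.2, 20.0 and 26.3 CPM in control mice and 10.6, 19.2, 18.7, 11.3 and 20.4 CPM in LLC mice. Of the 5 LLC mice, 4 were below all control mice, and LLC 6, at 20.4 CPM, was just above the lowest control. It had the largest fitted difference of the 10, a log2-fold change of -0.68 (SE 0.211), with an unadjusted p of 0.0054 and an adjusted p of 0.163 by edgeR. The exact permutation p was 0.0317. The 5p arm, by contrast, was at 38.3, 33.6, 34.5 and 27.1 CPM in control mice and 37.7, 30.9, 32.7, 33.4 and 39.6 CPM in LLC mice. These groups overlapped widely, with a log2-fold change of 0.06 (SE 0.142, adjusted p = 0.818 by edgeR), a sign that turned to -0.09 when libraries were scaled by their totals alone.

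The arms of miR-434 had fold changes of opposite sign. The abundant miR-434-3p was at 1942, 1770, 1605 and 1810 CPM in control mice and 2127, 1727, 1654, 2070 and 2125 CPM in LLC mice. LLC 1, LLC 5 and LLC 6 exceeded all control mice, and LLC 2 and LLC 3 did not. The log2-fold change was 0.12 (SE 0.116, adjusted p = 0.563 by edgeR), and -0.04 with library totals alone. miR-434-5p was at 144.2, 167, 123 and 179 CPM in control mice and 83.8, 117, 153, 78.8 and 115 CPM in LLC mice. Here 4 of 5 LLC mice were below all control mice, and LLC 3 lay among them. The log2-fold change was -0.48 (SE 0.181), with an unadjusted p of 0.0174 and an adjusted p of 0.220 by edgeR, and an exact permutation p of 0.0556.

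The remaining hairpins were low. miR-431, which is known to act on Pax7 in satellite cells, was counted as miR-431-5p at 14.1, 18.5, 19.1 and 24.1 CPM in control mice and 16.7, 14.3, 18.7, 6.51 and 14.9 CPM in LLC mice. LLC 5 was the lowest of the 9 mice, and the log2-fold change was -0.39 (SE 0.242, adjusted p = 0.370 by edgeR). It was -0.22 without LLC 5 and -0.25 without control 4. miR-433-3p was counted 16 to 33 times per library and had a log2-fold change of -0.07 (SE 0.266, adjusted p = 0.882 by edgeR). The other arms, miR-433-5p with 4 to 24 counts and miR-431-3p with 0 to 9 counts, did not reach the filter.

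**Figure D2:**
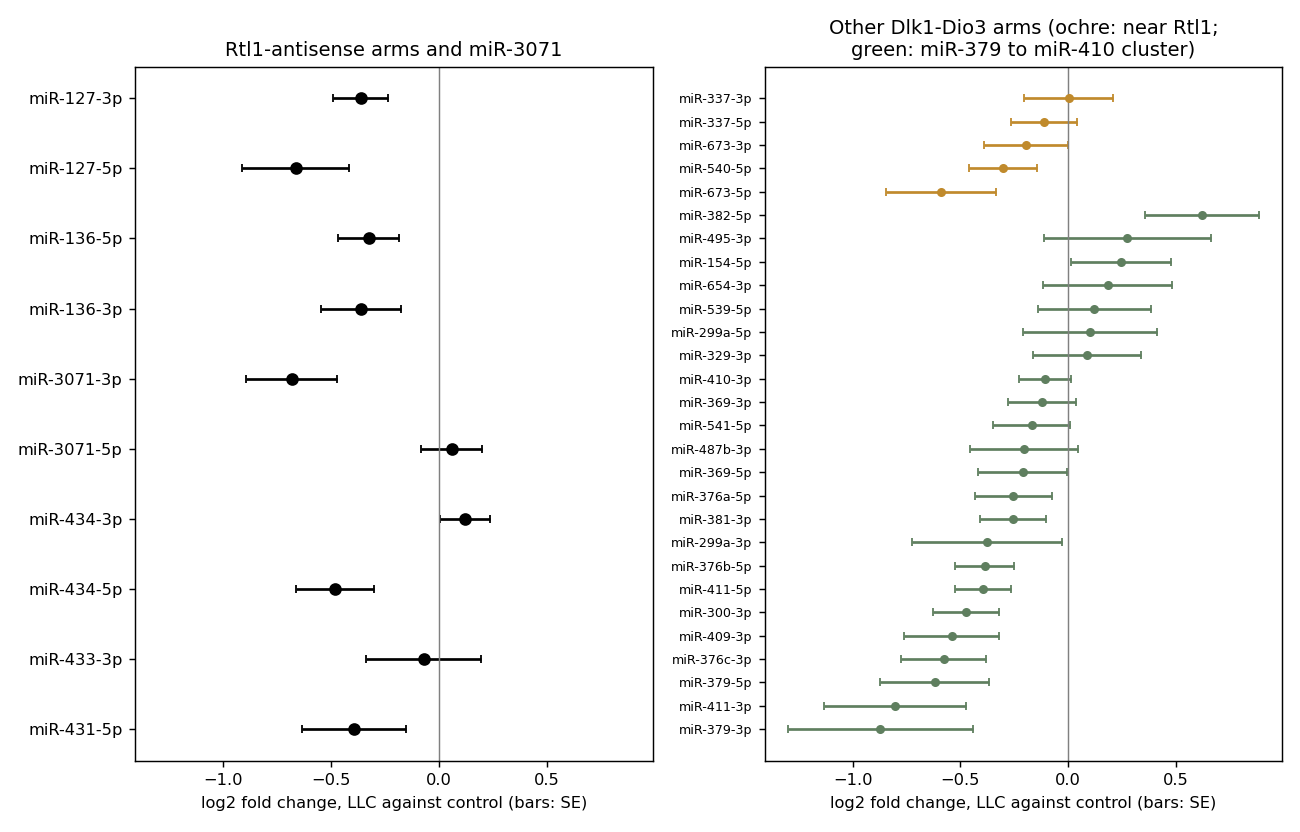
Log2-fold change of LLC against control mice (horizontal axis) for the 10 arms (left) and for 28 other tested arms of the Dlk1-Dio3 region (right, ochre for hairpins near Rtl1 and green for the miR-379 to miR-410 cluster), with bars for the SE of the fit. Of the 10 arms, 8 lie left of 0, and the lowest is miR-3071-3p at -0.68.

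Summed over the 10 arms, control mice had 7151 ± 302 CPM (n = 4) and LLC mice 6122 ± 549 CPM (n = 5). The share of all counts was 0.763 ± 0.0922% in control and 0.595 ± 0.138% in LLC mice. LLC 1 and LLC 5 had the lowest sums, 5573 and 5516 CPM. Those libraries also had the lowest TMM factors, 0.876 and 0.762, where the other 7 had 0.953 to 1.15, and in LLC 5 the 5 most abundant miRNAs took 68.5% of counts against 53.9 to 61.0% elsewhere. The erythroid markers (miR-451a and the miR-144 arms) moved with the members: all 3 were lower in LLC mice at an unadjusted p of at most 0.05, and their summed level was 215 to 325 CPM in control and 92.4 to 220 CPM in LLC mice, lowest in LLC 1 and LLC 5. The part of depth, composition and blood in these differences was not tested. In bulk muscle, fewer cells of a type and less RNA per cell cannot be told apart.

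Muscle markers fitted the tissue label only in part. miR-486a-5p (66714 ± 15130 CPM in control mice, n = 4) and miR-133a-3p (20321 ± 3384 CPM) were abundant, but miR-1a-3p, usually among the most abundant miRNAs of muscle, was at 20.9 ± 2.35 CPM in control and 17.4 ± 6.44 CPM in LLC mice, and miR-206-3p did not reach the filter. The 7 listed markers summed to 77619 to 102500 CPM in control and 85388 to 125070 CPM in LLC mice, with 0 of 6 tested at an unadjusted p of at most 0.05 (edgeR). Of these 6, 5 had log2-fold changes below 0 and 1 above 0. The latter was miR-486a-5p, the most abundant of the list, at 0.20. Among the markers of other cells, 2 of 5 leukocyte markers passed that limit in opposite directions, miR-223-3p with a log2-fold change of 0.70 and miR-150-5p with -0.38, and 4 of the 5 were above 0. In the endothelial list miR-126a-3p passed, at -0.31, and in the fibroblast and vessel wall list miR-199a-5p, at -0.33. miR-126a-3p moved with the members (r = 0.89 with their mean profile across the 9 mice, in which LLC 5 lies far below the others). The more abundant miR-126a-5p did not (r = 0.078, log2-fold change -0.09). The part of either in the result was not tested. Summed levels of the leukocyte, endothelial, and fibroblast and vessel wall lists were 691 to 800 against 583 to 742 CPM, 26211 to 33929 against 24162 to 29972 CPM, and 3748 to 3970 against 3352 to 4701 CPM. Of the neuron list 1 of 4 was tested, with sums of 3.95 to 6.91 against 3.09 to 8.10 CPM, and of the satellite cell list 1 of 2, with 7.18 to 7.90 against 7.11 to 12.4 CPM. No listed marker was at 0 in all libraries.

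The ratio of the 3p to the 5p arm was compared next, because both arms are counted in the same library and the ratio needs no scaling between libraries. It was computed for the 4 hairpins with both arms tested, and p-values were adjusted over all 74 such hairpins. Unadjusted p-values of at most 0.05 made up 8.11% of the 74, and groups without overlap 1.35%. None of the 4 passed after adjustment. This could hardly have come out otherwise, because the smallest p that the exact test allows is 0.00794. Adjusted over 74 hairpins, that p stays above 0.05 unless many hairpins have similarly small p-values. The adjusted p-values therefore cannot decide whether the ratio of a single hairpin differs.

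For miR-3071 the ratio was 0.816, 0.780, 0.579 and 0.971 in control mice, and 0.283, 0.621, 0.573, 0.337 and 0.516 in LLC mice. The 3p arm thus took 43.7 ± 5.22% of the hairpin's counts in control and 31.2 ± 7.17% in LLC mice. Of the 5 LLC mice, 4 were below all control mice, with LLC 1 and LLC 5 the lowest. The difference in log2 ratio was -0.79 (two-sided exact permutation p = 0.0397, adjusted p = 0.336), and without LLC 1 and LLC 5 it was -0.44 (exact permutation p = 0.0857).

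For miR-434 the ratio was 13.5, 10.6, 13.0 and 10.1 in control mice and 25.4, 14.8, 10.8, 26.3 and 18.5 in LLC mice. LLC 1 and LLC 5 were again the farthest from control, and LLC 3 lay within the control range. The difference was 0.63 (exact permutation p = 0.0714, adjusted p = 0.336). In size the differences of miR-3071 and miR-434 ranked 5 and 10 of the 74 hairpins. The miR-127 ratio was 942 ± 212 in control (n = 4) and 1157 ± 256 in LLC mice (n = 5), a difference of 0.28 (exact permutation p = 0.222, adjusted p = 0.411) that was 0.16 without LLC 3 and 0.19 without control 1. The miR-136 ratio hardly varied, at 0.104 to 0.113 in control and 0.0868 to 0.118 in LLC mice, a difference of -0.06 (exact permutation p = 0.611, adjusted p = 0.751). Arms of opposite sign, as in miR-434 and miR-3071, were 2 of 4 here and 55.4% of the 74 hairpins.

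**Figure D3:**
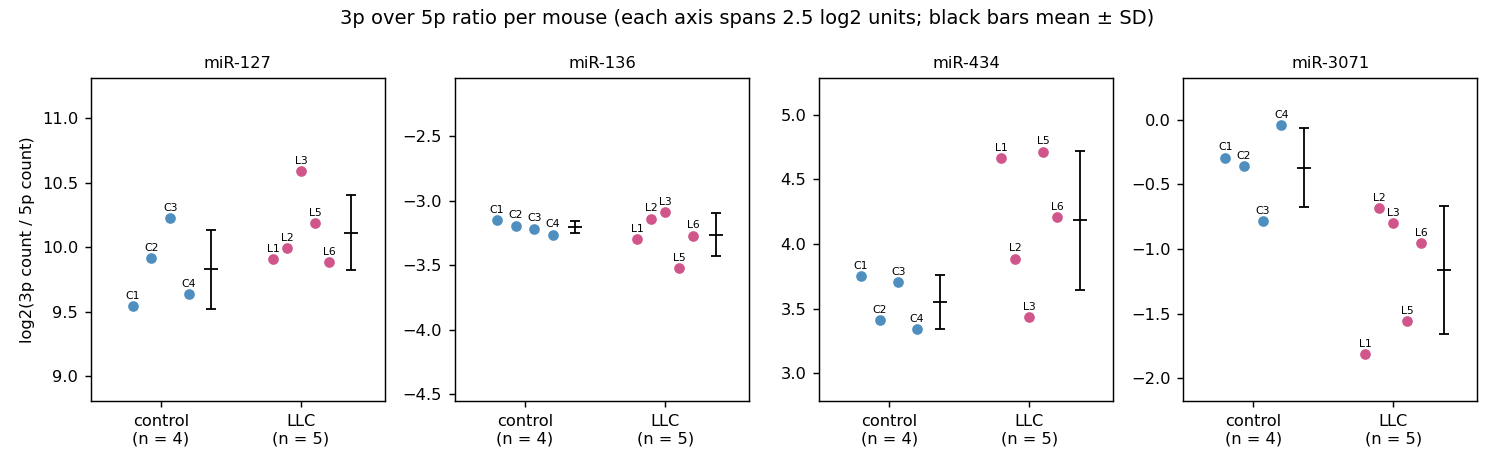
Log2 ratio of 3p to 5p counts per mouse (vertical axes, each spanning 2.5 log2 units) for the 4 hairpins with both arms tested, with points for control (C) and LLC (L) mice and black bars for the mean ± SD. L1 and L5 lie highest for miR-434 and lowest for miR-3071, and miR-136 stays nearly level.

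The agreement between hairpins was then examined across the 9 mice, with the arms of each hairpin summed. Of 15 pairs, 1 passed an adjusted p of 0.05: miR-136 and miR-3071, with Pearson r = 0.89 (exact permutation p = 0.0010, adjusted p = 0.0148) and Spearman rho = 0.87 (adjusted exact permutation p = 0.0676). Centred within groups r was 0.83, and without LLC 1 and LLC 5 it was 0.84. The number of pairs that passed depended on the scaling and the measure: it was 9 with library totals alone and 0 with RLE factors, with group-centred values, with the more abundant arm of each hairpin or with Spearman's rho. These are the hairpins whose arms are complementary. For miR-127 and miR-136, r was 0.83 (exact permutation p = 0.0101, adjusted p = 0.0754) and fell to 0.27 without LLC 1 and LLC 5, so that it rests on those mice. For miR-127 and miR-434 r was -0.60 (exact permutation p = 0.0958, adjusted p = 0.239). The median r of the 15 pairs was 0.19, against -0.00067 over all 46056 pairs of tested miRNAs.

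Single arms showed which part of each hairpin agreed. Of the 45 pairs of arms, 12 passed an adjusted p of 0.05 (exact permutation, adjusted over 45), all positive and all among miR-127-3p, miR-127-5p, miR-136-5p, miR-136-3p, miR-434-5p and miR-3071-3p. Mice of both groups were pooled, so a group difference enters r. Centred within groups, r of the 12 pairs was 0.67 to 0.96 and was not tested. An r of 0.8 or more was found in 26.7% of the 45 pairs and in 3.30% of all 46056 pairs of tested miRNAs, and all arms share the libraries and their scaling. When the two-sided p was taken as the doubled smaller tail, 8 passed. With Spearman's rho also required, 4 did: miR-127-3p with miR-434-5p, miR-136-5p with miR-3071-3p, and miR-127-5p with miR-136-5p and with miR-3071-3p. Some of the 12 rest on LLC 1 and LLC 5. Without these mice, r of miR-127-3p fell to 0.27 with miR-136-5p and 0.25 with miR-136-3p. For miR-434-5p it fell to 0.36 with miR-136-5p and 0.34 with miR-136-3p. It was 0.57 to 0.94 for the rest of the 12, except those of miR-127-5p, where other mice were left out.

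miR-136-5p and miR-3071-3p, the pair that shares 20 complementary bases, had r = 0.96 and rho = 0.88 (adjusted exact permutation p = 0.0043 and 0.0346), and r = 0.87 without LLC 1 and LLC 5. miR-3071-3p was 3.90 to 4.60% of miR-136-5p in control and 2.60 to 3.55% in LLC mice, groups that did not overlap. This ratio was chosen after its values were seen, so it is a description and no p is given for it. In the other ratios between members that were computed, the groups overlapped. The share of such separations over all pairs of miRNAs was not computed. The other complementary pair, miR-136-3p and miR-3071-5p, had r = -0.00 with TMM but 0.72 with library totals alone, where the first pair had 0.97. miR-127-3p and miR-434-5p, from different hairpins, had r = 0.95 and rho = 0.93 (adjusted exact permutation p = 0.0043 and 0.0169), and r = 0.83 without LLC 1 and LLC 5. Within miR-434 itself, r between the arms was -0.60 (unadjusted exact permutation p = 0.0924), and 0.45 with library totals alone.

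**Figure D4:**
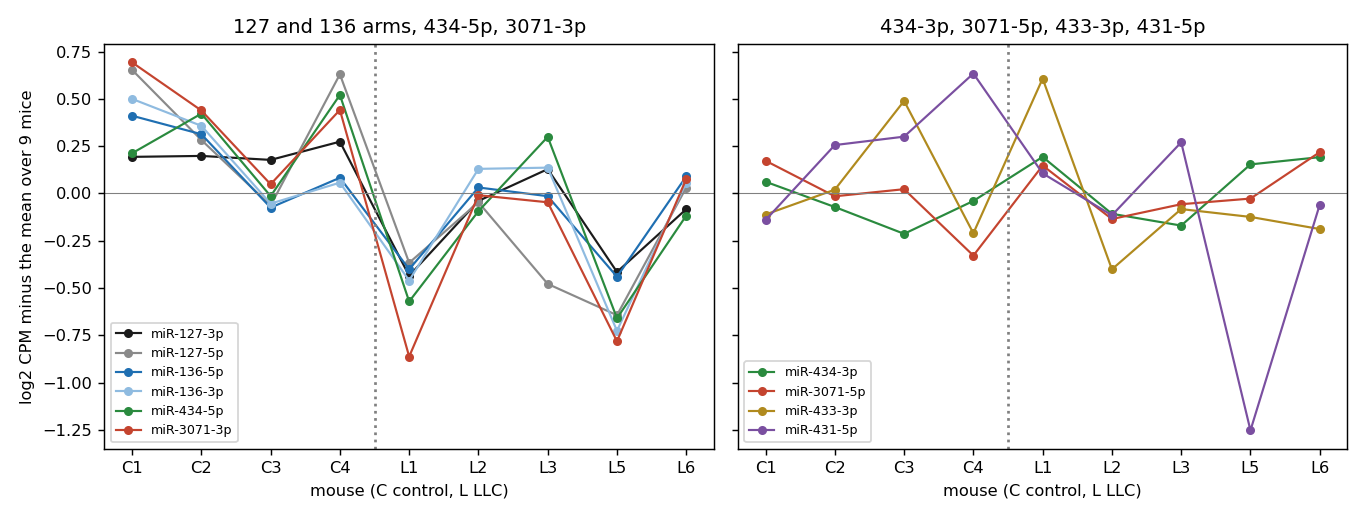
Level of each arm per mouse, as log2 CPM minus its mean over the 9 mice (vertical axis), for control (C) and LLC (L) mice, with lines joining the values of 1 arm only to guide the eye. The 6 arms on the left dip in L1 and L5, though miR-127-5p is lower in L3 than in L1. The 4 on the right, chosen after their values were seen, share no dip in L1 and L5 except miR-431-5p in L5.

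**Figure D5:**
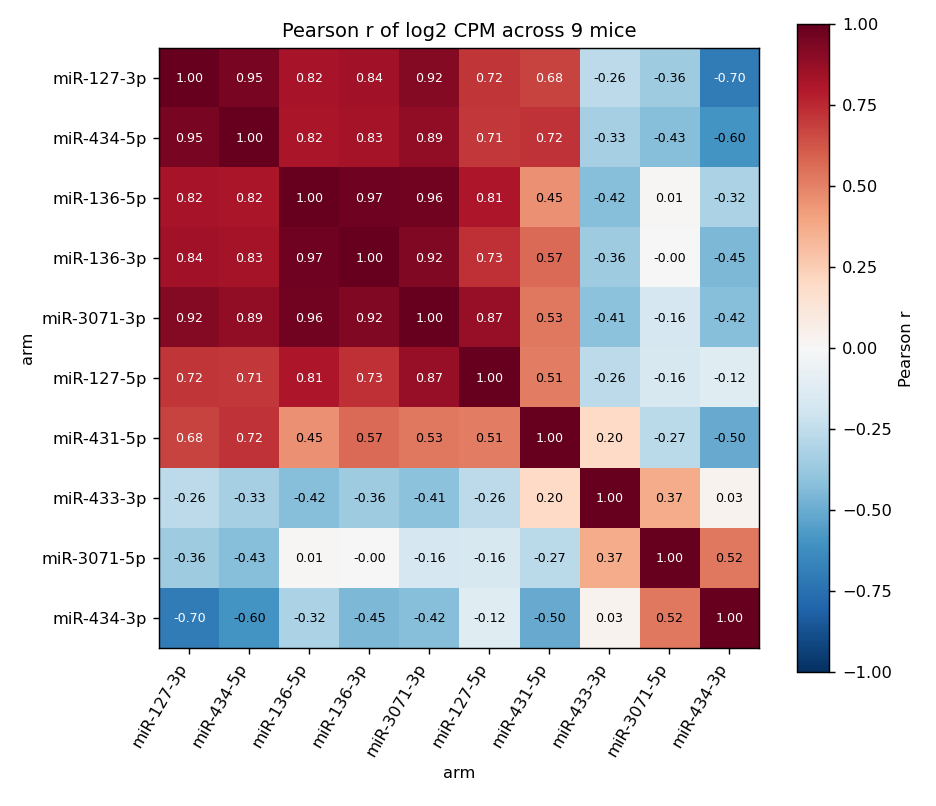
Pearson r of log2 CPM across the 9 mice for each pair of the 10 arms, printed in the cells and colored from -1 (blue) to 1 (red). The block of 6 arms at the upper left holds all 12 pairs that passed, and miR-434-3p has r = -0.70 with miR-127-3p.

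The sign of r between miR-127-3p and miR-434-3p depended on the scaling: it was -0.70 with TMM (exact permutation p = 0.0399, adjusted p = 0.0997) and 0.44 with library totals alone. As counts in the same libraries, miR-434-3p was 40.1 ± 3.07% of miR-127-3p in control and 58.2 ± 15.5% in LLC mice, highest in LLC 1 at 74.95% and LLC 5 at 71.9%. By contrast, miR-136-5p was 13.9 ± 2.21% and 14.3 ± 1.16% of miR-127-3p.

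The other miRNAs of the region were compared to show where the Rtl1 hairpins differ. Near Rtl1, 5 of 12 arms were tested, 4 lower and 1 higher, with a median log2-fold change of -0.20 and 1 (miR-673-5p, -0.59) at an unadjusted p of at most 0.05. In the downstream miR-379 to miR-410 cluster, 23 of 78 arms were tested, 16 lower and 7 higher, with a median of -0.21. Of these 7 were lower and 1 higher at that limit, and none was called. The abundant miR-411-5p was at 723 ± 49.1 CPM in control and 549 ± 95.2 CPM in LLC mice (log2-fold change -0.40, adjusted p = 0.200 by edgeR). The ratio of the members' sum to the cluster's sum was 3.46 to 4.70 in control and 3.85 to 4.45 in LLC mice, so the ranges overlapped.

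Among the 294 tested miRNAs outside the group, the closest to the mean profile of the 6 hairpins over the 9 mice, by Pearson r, were miR-369-5p (0.948), miR-411-5p (0.943), miR-300-3p (0.940), miR-1933-3p (0.925) and miR-409-3p (0.906). All but miR-1933-3p belong to the miR-379 to miR-410 cluster. Centred over the mice, the profile was -0.44 in LLC 5 and -0.12 to 0.16 in the other mice. LLC 5 therefore weighs heavily in these r, which were not computed without it. All points share the libraries and their scaling, so these values are a description.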

How the data were processed

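Small RNA libraries (TruSeq) of 9 TA muscles were sequenced as single-end reads of 50 bases. The authors mapped them with Bowtie to miRBase mature sequences, requiring an exact seed and keeping every best alignment, and the deposited tables hold raw counts, 1 per library, so that reads fitting several miRNAs equally well can count for each. The Bowtie version is not given in the sources used here. A further LLC library was not analysed here.

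LLC was tested against control by the quasi-likelihood F test of edgeR 4.0.16 under R 4.3.3, with TMM scaling and without a block. A miRNA was tested if some library had over 32 counts of it, which left 304, and p-values were adjusted by Benjamini-Hochberg over all of them. The study used DESeq2, which is an alternative here. A call needed a 1.5-fold change or more and an adjusted p no higher than 0.05. SEs were derived from the F statistic. Levels are CPM, and mean ± SD are over mice. Exact tests ran over the 126 splits of 9 mice into 4 and 5 (smallest p 0.00794) or over all 362880 pairings, in Python 3.11. Two-sided p-values count absolute statistics at least as large as that observed. The doubled smaller tail was also computed, after the data were seen. Arm ratios used a pseudocount of 0.5, and log2 CPM for single-arm tests a prior count of 2. p-values of group differences are judged against the spread between these mice. Those of r pool both groups, so a group difference enters them. Depth limits cover counting error only.

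The members and lists were chosen with earlier results of these data known. Named miRNAs are the 10 members, their untested arms, the 5 nearest profiles and cell markers. From the lists of the region, miR-673-5p is named for its change and miR-411-5p for its level. Other arms of these lists with large changes, in either direction, are not named. Positions and sequences are from RefSeq (GRCm38.p6) and GENCODE (GRCm38). No 2 libraries were copies, since the smallest chi-square per degree of freedom between replicates was 124. In data simulated for LLC against control, the test called 30 of 67 miRNAs changed 1.5-fold, 63 of 67 changed 2-fold, 66 of 66 changed 4-fold and 2 of 104 unchanged. Alternatives were RLE factors, library totals with and without the 5 most abundant miRNAs, DESeq2 1.42.0, limma 3.58.1 with voom, other filters and pseudocounts, 3p shares, group-centred values, Spearman's rho, a replicate block, leaving out each mouse, and, added after seeing the data, leaving out LLC 1 and LLC 5.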

Additional observations from a re-analysis of the deposited data

Results flagged for a closer look

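Of 28 groups of values examined, 1 held a mouse far from the others: the level of miR-433-3p in LLC 1, 5.57 CPM, where the other LLC mice had 2.77 to 3.45 CPM. The gap was 0.756 of the group's range, above the critical value of 0.71. Chance gives about 1 such group in 20, and the value rests on 33 counts.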

How the results depend on the processing

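No member was called, except miR-3071-3p without a filter on low counts (1 called, adjusted p = 0.0191, among 22 of 932 miRNAs) and miR-434-5p without LLC 3 (log2-fold change -0.62, adjusted p = 0.0471, among 8 of 303), both by edgeR, so that leaving out 1 mouse gave 0 to 1. DESeq2 called 7 of 304, none a member. Members at an unadjusted p of at most 0.05 numbered 3 to 6 when 1 mouse was left out (3 without control 1), while all such miRNAs numbered 30 to 74, and 1, miR-3071-3p, among 22 of 301 without LLC 1 and LLC 5. miR-136-5p was not among them with DESeq2, filterByExpr or totals without the 5 most abundant miRNAs. Nor was miR-136-5p among them when control 1, control 2, LLC 1 or LLC 5 was left out. The log2-fold change of miR-127-3p ranged from -0.48 to -0.17 over the settings, with adjusted p-values of 0.0921 to 0.739 by edgeR or the alternative tool. The sign of miR-3071-5p turned with library totals alone (-0.0880) and without control 4 (-0.00876). Leaving out 1 mouse gave -0.00876 to 0.134 for miR-3071-5p. The sign of miR-434-3p turned with library totals alone (-0.0366). For miR-433-3p it turned without control 3 (0.0878), LLC 2 (0.0101) and LLC 6 (0.00533). Leaving out 1 mouse gave -0.131 to 0.0878 for miR-433-3p. With library totals alone all 10 were lower, while the median of all tested miRNAs moved from -0.02 to -0.17. The cause of these changes was not tested.

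The arm ratio difference of miR-136 ranged from -0.10 to 0.00723 when 1 mouse was left out (0.00723 without LLC 5) and was 0.0399 without LLC 1 and LLC 5. That of miR-3071 ranged from -0.93 to -0.63, lost its unadjusted p of at most 0.05 in 7 of these 9 fits, where fewer mice allow fewer splits, and was -0.44 without both. That of miR-127 ranged from 0.16 to 0.41. That of miR-434 ranged from 0.50 to 0.82 and passed only without LLC 3 (exact permutation p = 0.0286). Hairpin pairs that passed numbered 9 with library totals alone, 0 with RLE factors, group-centred values, the more abundant arm, Spearman's rho or without LLC 1 and LLC 5, and 0 to 2 when 1 mouse was left out. The count was 0 without control 1, control 2 or LLC 5, and 2 without LLC 1. Taking two-sided p-values as the doubled smaller tail moved no member, arm ratio or hairpin pair across 0.05, but moved the arm pairs from 12 to 8.

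Same-numbered mice did not deviate together (r of -0.249 to -0.0899 over 3 numbers, mean -0.19, against a mean of 0.0339 for other pairs). Those other pairs ranged from -0.332 to 0.442, so 3 values cannot settle whether the numbers pair the mice. With a replicate block, the group difference rests on the 3 numbers present in both groups, not on all mice. Mice without a same-numbered partner do not enter it, among them those with the highest and the lowest miR-431-5p. In that fit, 0 members and 15 of 304 miRNAs had an unadjusted p of at most 0.05 (edgeR). With so few mice, these counts cannot decide whether the members differ. In the same fit miR-431-5p was at -0.05 and miR-3071-5p at -0.0748. The arm ratio differences over the same 3 numbers were 0.37 for miR-434 and 0.0122 for miR-136. Low counts of miR-433-3p and miR-127-5p limit what could be detected.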
